A study of Mus musculus with 8 samples.

Results

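The p53 genes described here are Trp53, which encodes the transcription factor p53, and 9 genes known as its targets that are not inhibitors of cyclin-dependent kinases, namely Mdm2, Trp53inp1, Ccng1, Aen, Zmat3, Phlda3, Ei24, Sesn1 and Perp. The 10 genes were taken by name from a deposited table of 24909 entries, with earlier results of these data known. All 10 were found and passed the filter on low counts. RNA was sequenced from ASZ001, a cell line from mouse basal cell carcinoma, a skin tumour driven by Hedgehog signalling. The line carried a vector switched on by doxycycline that was either empty or encoded c-FOS, the AP-1 transcription factor subunit, and every group received doxycycline for 24 h. Cells with the c-FOS vector were also given, for 6 h, afatinib at 5 µM, UO126 at 10 µM or the vehicle DMSO. Afatinib is an inhibitor of the EGF receptor family and UO126 an inhibitor of the kinases MEK1 and MEK2. The label of the empty-vector group names doxycycline alone and no vehicle, so DMSO and c-Fos cannot be told apart in the comparison with that group. Each of the 4 groups had 2 libraries. Nothing in the labels tells whether duplicates were separate cultures, and p-values here reflect only the spread of these samples, which may be technical.

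p53 is a transcription factor that binds DNA as a tetramer and is known for switching on genes of cell cycle arrest, cell death, DNA repair and metabolism after DNA damage or oncogene stress. Its activity is set largely on the protein: Mdm2, itself a p53 target, ubiquitinates p53 and sends it to the proteasome, a negative feedback. The mRNA of Trp53 is therefore no measure of p53 activity, and many p53 targets are also driven by other factors. In epidermis and its tumours the relative p63 shares DNA sites with p53, and Perp is among the genes p63 drives there. The sources used here do not tell whether Trp53 is intact in ASZ001.

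The libraries held between 17901974 and 23126048 counts. The gene Fos checked the labels: it stood at 1163 and 1120 CPM, the count scaled to a common library size, in c-Fos + DMSO and at 40.6 and 50.5 CPM in empty vector, a log2 fold change of 4.65 ± 0.096 (SE, n = 2 libraries each, adjusted p = 2.6e-12, edgeR). In c-Fos + UO126, Fos stood at 813 and 875 CPM, below c-Fos + DMSO by a log2 change of -0.44 (adjusted p = 0.0015), and in c-Fos + afatinib at 1107 and 1081 CPM (log2 change -0.06, adjusted p = 0.57). All 8 markers of basal keratinocytes and basal cell carcinoma were detected, Krt5 at 7050 to 8680 CPM and Krt14 at 5460 to 9460 CPM. Markers of fibroblasts summed to 4.78 to 10.6 CPM and of leukocytes to 5.41 to 9.32 CPM per library, with Lum, Thy1 and Tyrobp at 0 in all 8. Endothelial markers summed to 101 to 167 CPM, nearly all from Pecam1 and Flt1 with Kdr at 0, and melanocyte markers to 40.6 to 65.1 CPM, mostly from Mitf with Tyr at 0. The fibroblast sum was 7.04 and 7.13 CPM in c-Fos + afatinib, 9.18 and 10.6 CPM in c-Fos + UO126, 8.16 and 9.03 CPM in c-Fos + DMSO and 4.78 and 5.07 CPM in empty vector, and the endothelial sum was 167 and 153 CPM in c-Fos + DMSO and 109 and 101 CPM in empty vector. Their part in the results was not tested. The 2 c-Fos + UO126 libraries stood furthest apart of any duplicate pair, with a chi-square of 26.4 per degree of freedom over genes, against 9.6 for c-Fos + afatinib, 9.03 for c-Fos + DMSO and 5.04 for empty vector. Where leaving out one of these libraries changed the call of a member, the value without it is given beside the result. These are bulk RNA samples, in which fewer cells of a kind and less RNA per cell cannot be told apart.

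Promoter sequence was taken from RefSeq on the mouse build GRCm38.p6, in windows reaching 250 bases before to 50 bases after each transcription start. Of the 10 genes, 7 had a window, with 2 starts each for Aen and Sesn1, which makes 9 windows. One decamer of the p53 consensus, the unit that p53 binds in pairs, was found in 7 of the 9 windows and in 6 of the 7 genes, against 8.36% of all 32851 windows. Both windows of Aen hold the same match. Apart from Trp53, the genes were chosen as known p53 targets, so the higher share in them tests nothing. The consensus reads the same on both strands. Both strands were likewise searched for TGANTCA, in which N is any base, a broad form of the AP-1 site that c-Fos binds with a Jun partner. It was found in 0 of the 9 windows, against 7.81% of all windows. So few windows cannot set that 0 apart from this share. A match is a description of letters and not of binding, and a site outside these windows would not be seen.

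The decamers are shown with 10 bases on each side, 5′ to 3′ along the gene's own strand, with the match in capitals. They mark which of the genes carry the letters of a single p53 decamer near a start. Trp53 lies on the plus strand at chr11:69580274-69580303, Mdm2 on the minus strand at chr10:117710925-117710954, Ccng1 on the minus strand at chr11:40755452-40755481, Aen on the plus strand at chr7:78895927-78895956, Ei24 on the minus strand at chr9:36797325-36797354 and Sesn1 on the plus strand at chr10:41887256-41887285. Counted from the start, the first base of the match was at -75 in Trp53, -186 in Mdm2, -185 in Ccng1 and -10 in Ei24. In Sesn1 it was at -173 from the second start, and the first start had none. The match in Aen was at -121 from its second start, and the same bases fall just after its first start. The window of Phlda3 held no match.
Trp53: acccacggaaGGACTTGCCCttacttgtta
Mdm2: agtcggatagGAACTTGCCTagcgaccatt
Ccng1: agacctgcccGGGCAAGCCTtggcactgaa
Aen: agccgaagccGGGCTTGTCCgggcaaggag
Ei24: cgtgcggcccGGGCATGCCCagtgtgggcg
Sesn1: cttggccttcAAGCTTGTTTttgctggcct

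The 250 bases before the start are printed whole for Trp53 (plus strand, chr11:69580109-69580358) and Mdm2 (minus strand, chr10:117710759-117711008), the transcription factor and its feedback inhibitor, whose mRNAs moved in opposite directions with both inhibitors as described further on. Capitals again mark the decamer. Mdm2 is also known to have an internal promoter with p53 elements, which was not examined.
Trp53: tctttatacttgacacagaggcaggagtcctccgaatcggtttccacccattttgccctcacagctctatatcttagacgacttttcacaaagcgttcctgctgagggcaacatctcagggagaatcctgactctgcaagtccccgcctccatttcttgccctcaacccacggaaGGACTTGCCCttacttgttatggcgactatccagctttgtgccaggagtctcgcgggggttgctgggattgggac
Mdm2: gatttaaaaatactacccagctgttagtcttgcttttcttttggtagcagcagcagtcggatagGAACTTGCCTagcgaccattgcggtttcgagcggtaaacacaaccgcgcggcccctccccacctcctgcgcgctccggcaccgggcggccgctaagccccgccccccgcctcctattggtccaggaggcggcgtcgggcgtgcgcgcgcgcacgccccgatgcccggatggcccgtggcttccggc

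**Figure D1:**
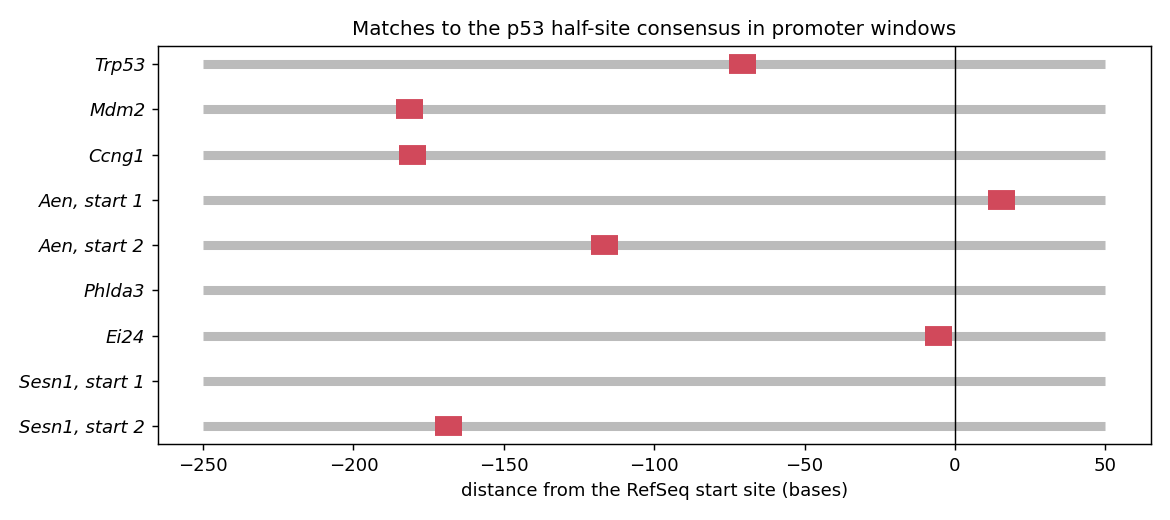
Each grey bar is 1 promoter window, each red box a match to the p53 decamer (half-site) consensus, and the x axis gives the distance from the transcription start in bases. Matches are drawn in 7 of the 9 windows, and Phlda3 and the first start of Sesn1 have none.

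At the level of whole comparisons, the members split in both directions. With c-Fos, in c-Fos + DMSO over empty vector, 3 of the 10 genes rose (Mdm2, Aen and Phlda3) and 3 fell (Trp53inp1, Sesn1 and Perp), where a call is an adjusted p under 0.05 in edgeR's quasi-likelihood test with Benjamini-Hochberg adjustment over 12879 genes. The same test called 42.2% of all genes in that comparison, 21.5% as higher and 20.7% as lower. With afatinib, in c-Fos + afatinib over c-Fos + DMSO, 4 rose (Mdm2, Trp53inp1, Sesn1 and Perp) and 2 fell (Trp53 and Aen), against 42.7% of all genes called, 21.2% as higher and 21.5% as lower. With UO126, in c-Fos + UO126 over c-Fos + DMSO, 4 rose and 2 fell, against 28.6% of all genes called, 13.9% as higher and 14.7% as lower. Those were again Mdm2, Trp53inp1, Sesn1 and Perp as higher and Trp53 and Aen as lower. The DESeq2 Wald test called 4 of the 10 with UO126. Its own background was 1352 of 12879 genes as higher and 1483 as lower. With c-Fos and with afatinib, 6 calls among 10 genes lie within 2 genes of the background share.

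Ccng1, Zmat3 and Ei24 passed the test in none of the 6 comparisons made. The median log2 fold change of the 10 genes was -0.03 with c-Fos, 0.14 with afatinib and 0.07 with UO126, and that of all genes tested lay between -0.01 and 0.00. The 3 comparisons share the c-Fos + DMSO libraries, so a gene low in those libraries is lower with c-Fos and higher with both inhibitors. Values for the 4 groups are therefore given side by side.

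**Figure D2:**
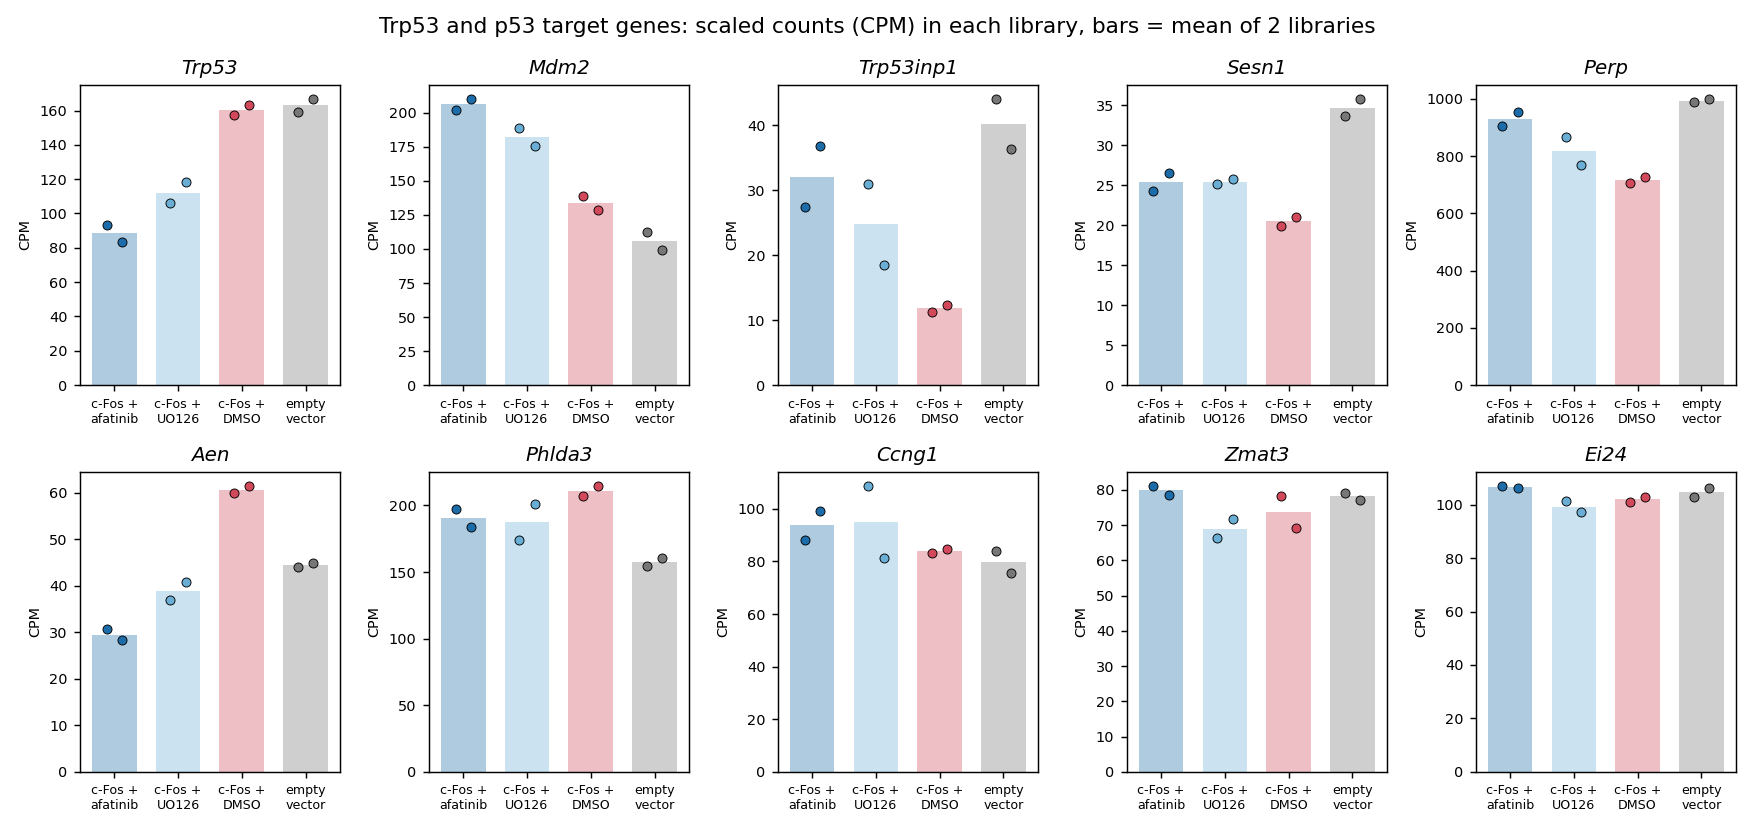
Each panel plots the CPM of 1 gene on a linear y axis, with 2 points per group, 1 for each library, and a bar at the mean from 0, for c-Fos + afatinib, c-Fos + UO126, c-Fos + DMSO and empty vector from left to right. Trp53 and Aen are lowest with afatinib, Mdm2 is highest there, and Ei24 stays between 97.4 and 107 CPM in all 8 libraries.

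Trp53 mRNA was near the same level with and without c-Fos and lower with either inhibitor. It stood at 93.5 and 83.4 CPM in c-Fos + afatinib, 106 and 118 CPM in c-Fos + UO126, 157 and 164 CPM in c-Fos + DMSO and 159 and 167 CPM in empty vector. Both libraries of each inhibitor lay below all 4 libraries without one. Trp53 fell by 0.86 ± 0.076 on the log2 scale with afatinib over c-Fos + DMSO (SE, adjusted p = 1.3e-06), to 0.551 of the level, and by 0.52 ± 0.075 with UO126 (adjusted p = 0.00023), to 0.699 of the level. Set directly against c-Fos + UO126, c-Fos + afatinib was lower by a log2 change of -0.34 ± 0.076 (adjusted p = 0.0089), and the adjusted p was 0.14 without the second afatinib library. For c-Fos + DMSO over empty vector the log2 change was -0.02 ± 0.074 (adjusted p = 0.83). The test does not show these 2 groups to be equal. Against empty vector, the inhibitor groups were lower by log2 changes of -0.88 (afatinib, adjusted p = 6e-07) and -0.54 (UO126, adjusted p = 6.8e-05).

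Mdm2, the ubiquitin ligase that restrains p53, rose with c-Fos and again with each inhibitor. It had 203 and 210 CPM in c-Fos + afatinib, 189 and 176 CPM in c-Fos + UO126, 139 and 128 CPM in c-Fos + DMSO and 113 and 99.3 CPM in empty vector. No 2 groups overlapped. The log2 fold change was 0.33 ± 0.076 for c-Fos + DMSO over empty vector (SE, adjusted p = 0.003), with an adjusted p of 0.052 when the second empty-vector library was left out. Mdm2 rose 1.54-fold with afatinib over c-Fos + DMSO (log2 0.62 ± 0.075, adjusted p = 1.9e-05) and 1.36-fold with UO126 (log2 0.45 ± 0.075, adjusted p = 0.00064). Over empty vector the folds were 1.94 with afatinib (adjusted p = 2.5e-07) and 1.72 with UO126 (adjusted p = 2.2e-06). Between the inhibitors the log2 change was 0.18 ± 0.074 (adjusted p = 0.13). Mdm2 was thus higher and Trp53 lower in every library with an inhibitor than in every c-Fos + DMSO library.

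Among the genes of cell death and autophagy, Trp53inp1, Aen and Perp changed, each with c-Fos in one direction and with afatinib in the other. Trp53inp1 encodes a stress-induced nuclear cofactor of p53 that is linked to apoptosis and autophagy. It had 27.4 and 36.7 CPM in c-Fos + afatinib, 30.9 and 18.5 CPM in c-Fos + UO126, 11.3 and 12.3 CPM in c-Fos + DMSO and 44.0 and 36.3 CPM in empty vector. Its highest library was 3.89 times its lowest, the widest spread of the 10 genes. Both c-Fos + DMSO libraries lay below the other 6. Trp53inp1 fell to 0.294 of the empty-vector level with c-Fos (log2 -1.77 ± 0.29 SE, adjusted p = 0.0037), and stood 2.72-fold higher with afatinib than in c-Fos + DMSO (log2 1.44 ± 0.29, adjusted p = 0.0089) and 2.09-fold higher with UO126 (log2 1.07 ± 0.3, adjusted p = 0.042). Both inhibitor calls were lost when either c-Fos + DMSO library was left out, which leaves 1 library in that group. The log2 changes moved little. Without the first or the second they were 1.39 and 1.53 for afatinib, and 1.01 and 1.14 for UO126. The UO126 call was also lost without either empty-vector library (adjusted p = 0.064 and 0.067), which enter through the shared spread. The UO126 value was 0.66 without the first UO126 library (adjusted p = 0.035) and 1.39 without the second. For c-Fos + afatinib over empty vector the log2 change was -0.32 ± 0.25 (adjusted p = 0.35), or -0.11 without the first afatinib library (adjusted p = 0.81) and -0.53 without the second (adjusted p = 0.22). For c-Fos + UO126 over empty vector the log2 change was -0.7 ± 0.26 (adjusted p = 0.08), or -1.10 (adjusted p = 0.00092) without the first UO126 library and -0.35 (adjusted p = 0.15) without the second. With no filter on low counts both changes over empty vector were called, with an adjusted p of 0.0021 for afatinib and 2e-12 for UO126, and the UO126 change was also called without the robust step (adjusted p = 0.017).

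Aen, the apoptosis-enhancing nuclease, went the other way from Trp53inp1. It had 30.7 and 28.3 CPM in c-Fos + afatinib, 37.0 and 40.7 CPM in c-Fos + UO126, 59.8 and 61.4 CPM in c-Fos + DMSO and 44.1 and 44.9 CPM in empty vector, and no 2 groups overlapped. Aen rose 1.36-fold with c-Fos (log2 0.44 ± 0.075, adjusted p = 0.00035). With afatinib it fell to 0.487 of the c-Fos + DMSO level (log2 -1.04 ± 0.078, adjusted p = 2.8e-07), the smallest adjusted p of the 10 genes in that comparison, and with UO126 to 0.641 of it (log2 -0.64 ± 0.076, adjusted p = 4.4e-05). With afatinib Aen also lay below empty vector, by a log2 change of -0.59 ± 0.078 (adjusted p = 3.4e-05), whereas with UO126 the change was -0.2 ± 0.076 (adjusted p = 0.058), or -0.24 (adjusted p = 0.036) without the second UO126 library. The inhibitors differed from each other in this gene: c-Fos + afatinib over c-Fos + UO126 gave a log2 change of -0.4 ± 0.078 (adjusted p = 0.0048), with an adjusted p of 0.077 without the second afatinib library.

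Perp encodes a tetraspan membrane protein that is both a death effector of p53 and a part of desmosomes in epidermis, and it had the highest level per length of the 10 genes. It stood at 905 and 955 CPM in c-Fos + afatinib, 866 and 768 CPM in c-Fos + UO126, 707 and 727 CPM in c-Fos + DMSO and 990 and 999 CPM in empty vector. Every c-Fos library lay below both empty-vector libraries, and those with DMSO were lowest. Perp fell to 0.721 of the empty-vector level with c-Fos (log2 -0.47 ± 0.066, adjusted p = 7.2e-05) and rose 1.3-fold with afatinib over c-Fos + DMSO (log2 0.38 ± 0.066, adjusted p = 0.00046). With UO126 over c-Fos + DMSO the log2 change was 0.19 ± 0.066 (adjusted p = 0.046). That call was lost in 9 of the 16 alternative settings, among them DESeq2 (adjusted p = 0.059) and leaving out the first UO126 library (log2 0.12, adjusted p = 0.2) or either c-Fos + DMSO library (adjusted p = 0.18 and 0.11). Against empty vector, Perp was lower with UO126 (log2 -0.28 ± 0.066, adjusted p = 0.0038, or -0.17 and 0.048 without the second UO126 library), and with afatinib the log2 change was -0.1 ± 0.066 (adjusted p = 0.25). The mRNA of Trp63, which encodes p63, stood at 123 and 140 CPM in c-Fos + afatinib, 161 and 132 CPM in c-Fos + UO126, 169 and 171 CPM in c-Fos + DMSO and 291 and 281 CPM in empty vector. The part of Trp63 in the values of Perp was not tested.

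Ei24, an endoplasmic reticulum protein linked to autophagy and cell death, was the steadiest member. It had 107 and 106 CPM in c-Fos + afatinib, 101 and 97.4 CPM in c-Fos + UO126, 101 and 103 CPM in c-Fos + DMSO and 103 and 106 CPM in empty vector. Its highest library was 1.1 times its lowest, and the 6 log2 changes lay between -0.08 and 0.1 with adjusted p from 0.31 to 0.75. In the GENCODE M21 annotation, Ei24 is the one member with an exon overlap, with Gm26787 on the opposite strand. If the library kit does not mark strand, reads in the shared stretch cannot be assigned to one of the pair. Whether Gm26787 was among the counted genes was not checked.

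The members that act on growth signalling and the cell cycle are Sesn1, Phlda3 and Ccng1. Sesn1, a sestrin that restrains mTORC1 and lowers oxidative stress, had 24.3 and 26.6 CPM in c-Fos + afatinib, 25.2 and 25.8 CPM in c-Fos + UO126, 19.9 and 21.1 CPM in c-Fos + DMSO and 33.6 and 35.8 CPM in empty vector. The inhibitor groups lay between the other two and overlapped each other. Sesn1 fell to 0.59 of the empty-vector level with c-Fos (log2 -0.76 ± 0.086, adjusted p = 1e-05). It rose 1.24-fold over c-Fos + DMSO with afatinib (log2 0.32 ± 0.088, adjusted p = 0.011) and 1.24-fold with UO126 (log2 0.31 ± 0.087, adjusted p = 0.016). These gains are small, and each was lost without single libraries: the afatinib call without the second afatinib library (adjusted p = 0.079) or the first DMSO library (adjusted p = 0.076), and the UO126 call without the first or second DMSO library (adjusted p = 0.10 and 0.051) or under DESeq2 (adjusted p = 0.052). Both inhibitor groups stayed below empty vector, by log2 changes of -0.44 ± 0.082 for afatinib (adjusted p = 0.00064) and -0.45 ± 0.082 for UO126 (adjusted p = 0.00076).

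Phlda3 encodes a small protein with a pleckstrin homology domain that competes with Akt for membrane lipids and so holds Akt back. It had 197 and 184 CPM in c-Fos + afatinib, 174 and 201 CPM in c-Fos + UO126, 207 and 215 CPM in c-Fos + DMSO and 155 and 161 CPM in empty vector. All 6 c-Fos libraries lay above both empty-vector libraries. Phlda3 rose 1.34-fold with c-Fos (log2 0.42 ± 0.074, adjusted p = 0.00048), and it was also above empty vector with afatinib (log2 0.27 ± 0.074, adjusted p = 0.008) and UO126 (log2 0.25 ± 0.074, adjusted p = 0.016). The afatinib call was lost without the first afatinib library (adjusted p = 0.058), and the UO126 call without the second UO126 library (adjusted p = 0.066) or the first empty-vector library (adjusted p = 0.077). Set against c-Fos + DMSO, the log2 changes were -0.15 ± 0.073 with afatinib (adjusted p = 0.13) and -0.17 ± 0.073 with UO126 (adjusted p = 0.099). Without the second UO126 library the UO126 change was -0.27 (adjusted p = 0.0061).

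Ccng1, which encodes cyclin G1, a partner of protein phosphatase 2A in the Mdm2 feedback, passed the test in no comparison. It had 88.2 and 99.2 CPM in c-Fos + afatinib, 109 and 81.4 CPM in c-Fos + UO126, 83.0 and 84.9 CPM in c-Fos + DMSO and 84.1 and 75.6 CPM in empty vector. The UO126 duplicates differed more than any group means did: without the second, c-Fos + UO126 over c-Fos + DMSO gave a log2 change of 0.38 (adjusted p = 0.0016), against 0.18 ± 0.13 with both (adjusted p = 0.33). Over empty vector, the Ccng1 change with afatinib was 0.23 ± 0.13 (adjusted p = 0.17), and it was called in 4 of the 16 alternative settings, among them without either UO126 library (adjusted p = 0.0033 and 0.0034). With UO126 over empty vector it was 0.25 ± 0.13 (adjusted p = 0.15), or 0.05 without the first UO126 library (adjusted p = 0.71) and 0.47 without the second (adjusted p = 8.3e-05). With afatinib over c-Fos + DMSO it was 0.16 ± 0.13 (adjusted p = 0.35), or 0.18 (adjusted p = 0.034) without the first UO126 library. Zmat3, a zinc finger protein that binds RNA, had 81.1 and 78.6 CPM in c-Fos + afatinib, 66.3 and 71.7 CPM in c-Fos + UO126, 78.3 and 69.1 CPM in c-Fos + DMSO and 79.2 and 77.1 CPM in empty vector. Its log2 changes over c-Fos + DMSO were 0.12 ± 0.075 with afatinib (adjusted p = 0.24) and -0.1 ± 0.075 with UO126 (adjusted p = 0.37). Between the inhibitors the Zmat3 change was 0.21 ± 0.075 (adjusted p = 0.077), or 0.27 (adjusted p = 0.027) without the second UO126 library.

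**Figure D3:**
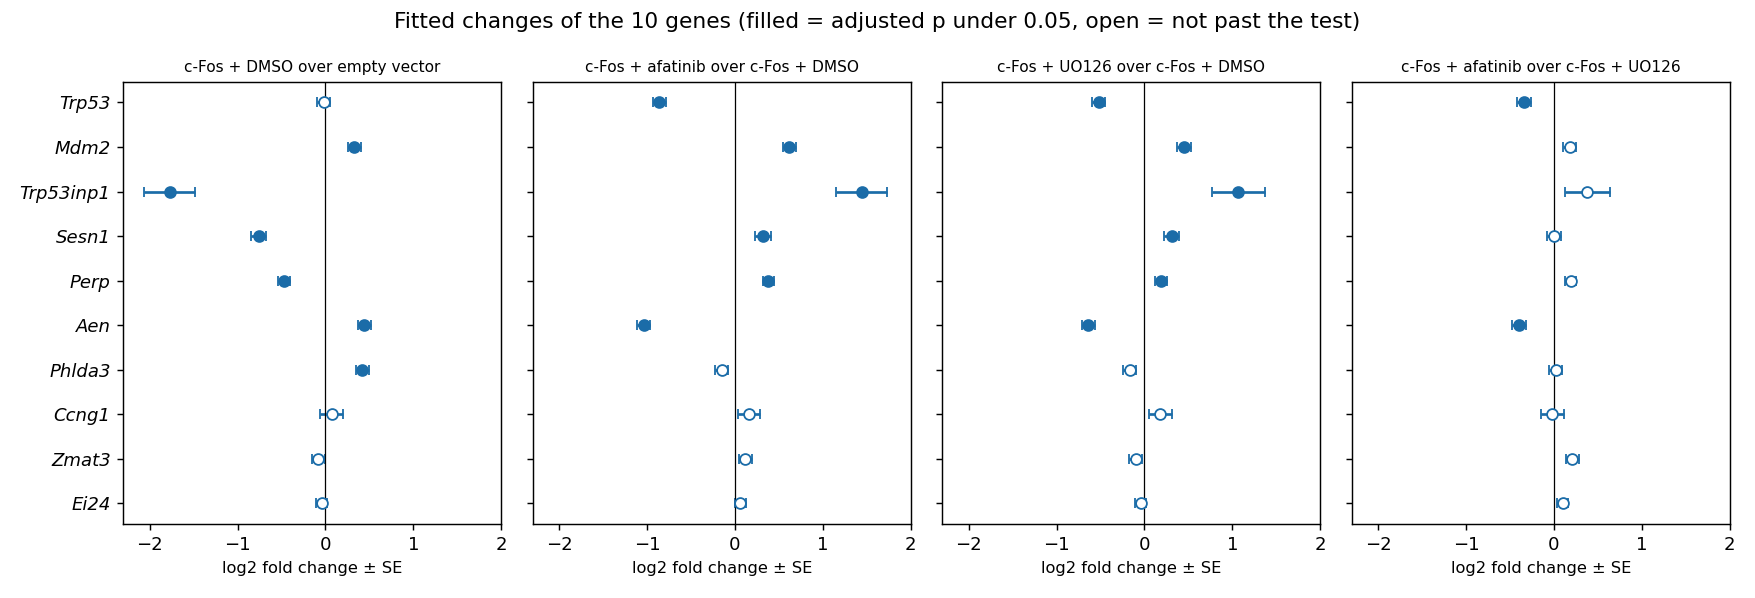
Points give the log2 fold change of each gene and bars its SE, with 1 panel for each of 4 comparisons and filled points for an adjusted p under 0.05. Trp53inp1 has the largest change with c-Fos (-1.77) and the widest error bars, and Aen and Trp53 lie at -1.04 and -0.86 with afatinib.

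Set directly against each other, the inhibitors differed in 2 of the 10 genes, Trp53 and Aen, both lower in c-Fos + afatinib than in c-Fos + UO126. The same comparison called 14.3% of all genes, 7.14% as higher and 7.14% as lower. Of the 10 genes, 5 had an unadjusted p under 0.05 in that test. The share of all genes under that threshold was not worked out, so this count has no background to be read against. Without the second afatinib library the log2 changes were -0.25 for Trp53 and -0.33 for Aen, against -0.34 and -0.4 with all libraries. Leaving out the first UO126 library raised the changes of Mdm2, Trp53inp1 and Perp, each higher with afatinib. The log2 change of Mdm2 was then 0.24 (adjusted p = 0.039), against 0.18 with all libraries (adjusted p = 0.13). That of Trp53inp1 was 0.80 without the first UO126 library (adjusted p = 0.015) and 0.06 without the second (adjusted p = 0.87), against 0.38 ± 0.26 with both (adjusted p = 0.42). That of Perp was 0.28 without the first (adjusted p = 0.0042) and 0.10 without the second (adjusted p = 0.32), against 0.19 ± 0.066 with both (adjusted p = 0.074). With no filter on low counts, Trp53inp1 and Perp were also called (adjusted p = 0.0015 and 0.017). For Sesn1 the log2 change was 0.00 ± 0.084, and for Phlda3 it was 0.02 ± 0.073, so the interval of each spans changes of either sign.

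Against empty vector, 5 of the 10 genes were called with afatinib and 5 with UO126, 2 as higher and 3 as lower each time. The background with afatinib was 45.1% of all genes, 21.7% as higher and 23.4% as lower, and with UO126 it was 37.7%, 18.3% as higher and 19.4% as lower. Trp53 and Sesn1 were lower and Mdm2 and Phlda3 higher than in empty vector with each inhibitor, Aen was lower with afatinib, and Perp was lower with UO126. These groups differ in both vector and treatment.

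Per kilobase of the length in the deposited table, the mean level over the 8 libraries ran from 456 CPM per kilobase for Perp through 128 for Phlda3, 70.6 for Trp53, 50.9 for Mdm2, 46.6 for Ei24 and 25.3 for Ccng1 to 9.67 for Zmat3, 8.67 for Aen, 8.37 for Sesn1 and 5.01 for Trp53inp1. The deposited count of a member was 207.5 at its lowest, for Trp53inp1, and 22874 at its highest, for Perp.

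Other genes of the p53 pathway were listed by role: 51 genes, of which 47 passed the filter on low counts. With c-Fos over empty vector 13 rose and 13 fell, with afatinib over c-Fos + DMSO 9 rose and 11 fell, and with UO126 over c-Fos + DMSO 11 rose and 11 fell. Over all genes tested, 21.5% rose and 20.7% fell with c-Fos, 21.2% rose and 21.5% fell with afatinib, and 13.9% rose and 14.7% fell with UO126, and the counts of each role are to be read against these shares. The median log2 change of the 47 genes was 0.01 with c-Fos, -0.07 with afatinib and -0.02 with UO126. Among the 10 tested apoptosis targets, 3 rose and 2 fell in each of these comparisons. Bid, which links death receptors to mitochondria, had 37.9 and 33.2 CPM in c-Fos + afatinib, 38.4 and 38.8 CPM in c-Fos + UO126, 71.8 and 74.0 CPM in c-Fos + DMSO and 54.1 and 54.7 CPM in empty vector. It rose with c-Fos (log2 0.42 ± 0.074, adjusted p = 0.00046) and fell with afatinib (log2 -1.04 ± 0.076, adjusted p = 2.4e-07) and with UO126 (log2 -0.92 ± 0.075, adjusted p = 1.7e-06), as Aen did. Over c-Fos + DMSO, afatinib raised Pmaip1 (log2 0.83, adjusted p = 3.9e-05), Bbc3 (log2 0.56, adjusted p = 0.0085) and Fas (log2 1.2, adjusted p = 0.01). UO126 raised Pmaip1 (log2 0.63, adjusted p = 0.00062), Fas (log2 1.78, adjusted p = 0.00074) and Apaf1 (log2 0.24, adjusted p = 0.041). Pidd1 fell with both inhibitors, and Fas stayed under 5 CPM. Bax, the pore-forming death effector, picked here after its values were seen, was called in none of the 6 comparisons.

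Among the 7 tested cell cycle and survival targets, 3 rose and 1 fell with c-Fos, 2 rose and 2 fell with afatinib, and 3 rose and 1 fell with UO126. Cdkn1a, which encodes the kinase inhibitor p21, stood at 87.5 and 83.8 CPM in c-Fos + afatinib, 74.3 and 74.8 CPM in c-Fos + UO126, 35.4 and 32.8 CPM in c-Fos + DMSO and 14.8 and 15.3 CPM in empty vector. Like Mdm2, it rose with c-Fos (log2 1.18 ± 0.08, adjusted p = 6.8e-08) and further with afatinib (log2 1.33 ± 0.071, adjusted p = 1.6e-08) and UO126 (log2 1.13 ± 0.071, adjusted p = 1.8e-07). Gadd45a, a growth arrest gene, had a log2 change of -0.06 ± 0.089 with c-Fos (adjusted p = 0.65) and rose with afatinib (log2 1.45 ± 0.084, adjusted p = 2.8e-08) and with UO126 (log2 0.94 ± 0.085, adjusted p = 4.2e-06). Btg2, an antiproliferative gene, fell with c-Fos (log2 -1.45 ± 0.12, adjusted p = 5.4e-07) and rose with UO126 (log2 0.59 ± 0.13, adjusted p = 0.004), and its change with afatinib was 0.27 ± 0.13 (adjusted p = 0.12). Sfn, which encodes 14-3-3 sigma, rose with c-Fos (log2 0.58 ± 0.061, adjusted p = 5.1e-06) and fell with afatinib (log2 -0.44 ± 0.061, adjusted p = 6.2e-05), and its change with UO126 was -0.16 ± 0.061 (adjusted p = 0.07).

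Of the 8 tested metabolism and autophagy targets, 3 rose and 3 fell with c-Fos, 3 rose and 2 fell with afatinib, and 3 rose and 4 fell with UO126. Sesn2, the paralog of Sesn1, had 29.9 and 25.6 CPM in c-Fos + afatinib, 16.9 and 18.5 CPM in c-Fos + UO126, 8.76 and 6.08 CPM in c-Fos + DMSO and 10.7 and 10.9 CPM in empty vector. It fell with c-Fos (log2 -0.54 ± 0.16, adjusted p = 0.013) and rose by a log2 change of 1.9 ± 0.14 with afatinib (adjusted p = 4.2e-07) and 1.25 ± 0.15 with UO126 (adjusted p = 5.1e-05). Ddit4, which restrains mTORC1, fell with c-Fos (log2 -1.45 ± 0.088, adjusted p = 2.7e-08) and rose with afatinib (log2 1.17 ± 0.09, adjusted p = 3.4e-07) and with UO126 (log2 1.59 ± 0.088, adjusted p = 7.1e-08). Dram1, a lysosomal protein of autophagy, rose with c-Fos (log2 0.57 ± 0.1, adjusted p = 0.00052) and fell with afatinib (log2 -0.74 ± 0.1, adjusted p = 6.5e-05) and with UO126 (log2 -0.61 ± 0.1, adjusted p = 0.00061).

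The 15 regulators and relatives of p53 were all tested, and 3 rose and 6 fell with c-Fos, 1 rose and 5 fell with afatinib, and 1 rose and 4 fell with UO126. Trp73, which encodes the relative p73, stood at 5.89 and 5.29 CPM in c-Fos + afatinib, 6.03 and 8.97 CPM in c-Fos + UO126, 9.12 and 11.02 CPM in c-Fos + DMSO and 32.7 and 34.4 CPM in empty vector. It fell with c-Fos (log2 -1.73 ± 0.14, adjusted p = 1e-06) and lower still with afatinib (log2 -0.85 ± 0.18, adjusted p = 0.0019), and the change with UO126 was -0.43 ± 0.17 (adjusted p = 0.072). Chek1, a DNA damage kinase, rose with c-Fos (log2 0.48 ± 0.11, adjusted p = 0.0046) and fell with afatinib (log2 -0.68 ± 0.12, adjusted p = 0.00045) and with UO126 (log2 -0.57 ± 0.11, adjusted p = 0.0027). Of the 7 genes of DNA repair and nucleotide supply, 1 rose and 1 fell with c-Fos, 0 were called with afatinib and 1 rose with UO126. The direct comparison of c-Fos + afatinib with c-Fos + UO126 called 7.14% of all genes as higher and 7.14% as lower. There, 2 of the 47 were higher and 3 lower: Sesn2 (log2 0.65 ± 0.12) and Gadd45a (0.51 ± 0.077) as higher, and Ddit4 (-0.42 ± 0.08), Tnfrsf10b (-0.37 ± 0.086) and Sfn (-0.29 ± 0.061) as lower. Of these 5, Sesn2, Ddit4 and Tnfrsf10b were lost without the first afatinib library (adjusted p = 0.051, 0.051 and 0.052), and Sfn and Tnfrsf10b without the second (adjusted p = 0.11 and 0.12).

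**Figure D4:**
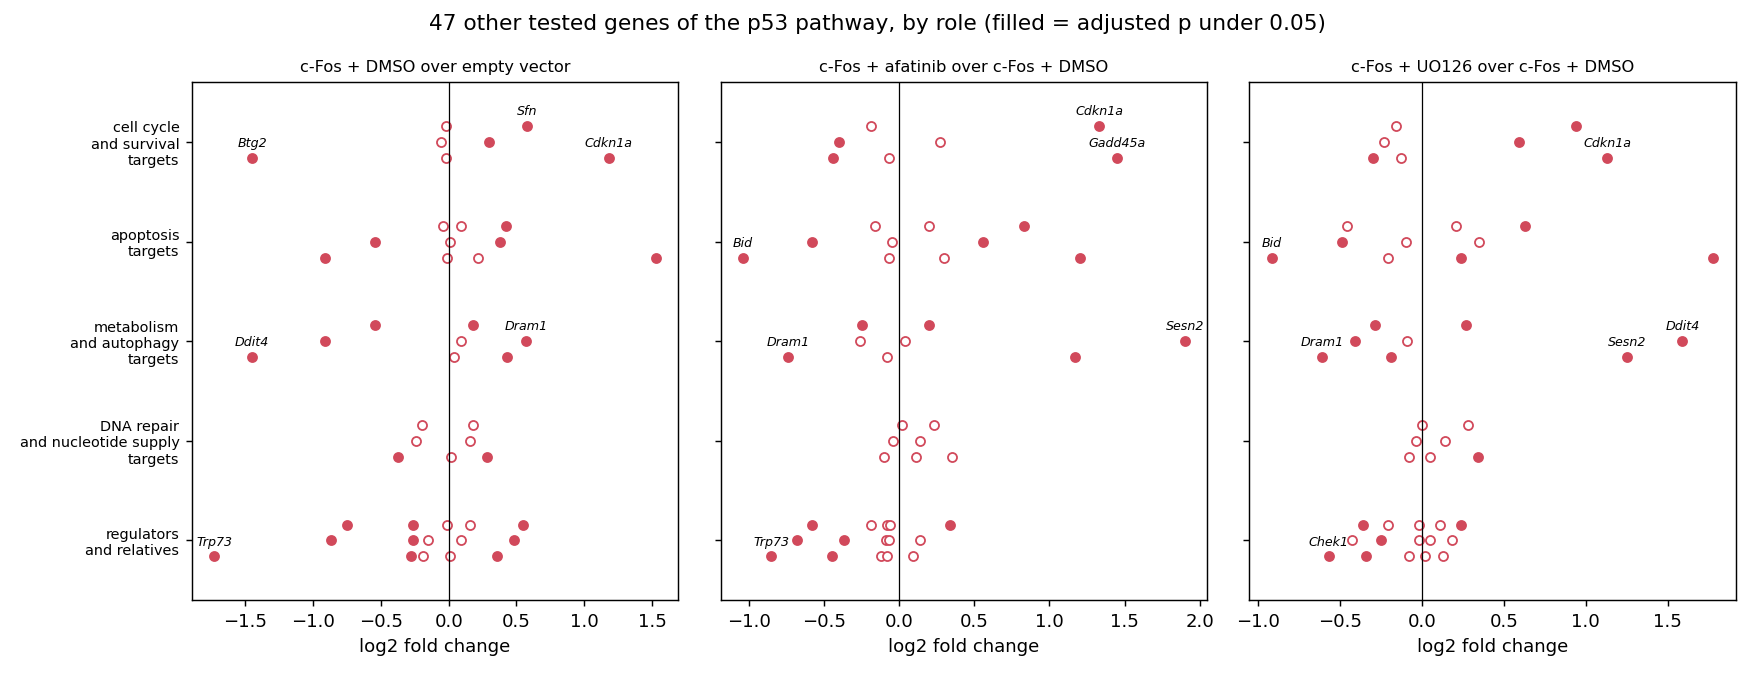
Each point is the log2 fold change of 1 of the other p53 pathway genes, grouped by role on the y axis, with 1 panel per comparison and filled points for an adjusted p under 0.05. Points lie on both sides of 0 in the role lists, and the lowest with c-Fos is Trp73 at -1.73.

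The member with the widest range, Trp53inp1, was set beside the 9261 genes of at least 10 CPM on average. The 5 whose log2 CPM followed it most closely over the 8 libraries were Zc2hc1a (Pearson r = 0.99), Rb1cc1 (0.988), Tmem106b (0.987), Wls (0.983) and Slc38a2 (0.982). The libraries fall into 4 groups of 2, so these values carry no test. They follow differences between duplicates as well as group levels. All 5 genes, like Trp53inp1, were higher in the first c-Fos + UO126 library than in the second. Rb1cc1 had 143 and 111 CPM there, and Tmem106b had 91.2 and 65.4 CPM.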

How the data were processed

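Messenger RNA of ASZ001 cells was sequenced in 8 libraries of 4 groups. Per the labels' protocols, libraries were made with a TruSeq RNA kit; the submitters' processing notes name TopHat, HOMER, DESeq2 and the build mm9, without versions. The deposited expected counts, which the authors did not normalize, are multiples of 0.5 and were rounded. Of 24909 entries, 26 with symbols turned into dates were left out. Genes passing the edgeR 4.0.16 filter (minimum count 10, total 15), 12879 in all, were scaled by TMM and fitted with the robust quasi-likelihood test over all 8 libraries (4 residual degrees of freedom), with 6 contrasts and Benjamini-Hochberg adjustment over all genes. CPM used TMM-scaled library sizes. The step was run on simulated counts with the same spread in all genes and groups. That does not match the unequal duplicates here.

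The alternatives were DESeq2 1.42.0 (size factors or Wald test), no filter, at least 5 CPM in 2 libraries, a replicate block, no robust step, Rn45s (1.62% to 4.08% of counts) left out, the 4 compared libraries alone, and each library left out. Members and lists were chosen with earlier results of these data known. Pathway genes were named as the 3 largest called changes each way of at least 5 CPM. Bax and the full set of apoptosis targets called with the inhibitors over c-Fos + DMSO were added after their values were seen. Promoters came from RefSeq GRCm38.p6, used for sequence alone, and matched by symbol.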

Additional observations from a re-analysis of the deposited data

How the results depend on the processing

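Over 16 alternative settings, counts of called genes and members kept within 1.5 times of their reported value in 182 cases and moved in 10. Single-gene changes kept direction and call in 1450, lost the call in 33, gained it in 20 and changed sign in 17. With the 4 compared libraries alone, 986 genes were called for afatinib over UO126, against 1839. With no filter on low counts 4 members were called there, against 2, and 1285 of 18126 genes were called as higher and 1161 as lower. Leaving out 1 library at a time gave these ranges of genes and members called: 3630 to 6325 and 5 to 6 for c-Fos + DMSO over empty vector, 3597 to 6376 and 4 to 7 for afatinib over c-Fos + DMSO, 1881 to 4114 and 3 to 8 for UO126 over c-Fos + DMSO, 698 to 2325 and 0 to 5 for afatinib over UO126, 4235 to 6650 and 4 to 6 for afatinib over empty vector, and 3334 to 5002 and 4 to 6 for UO126 over empty vector. The lone library of a group was then taken to vary like the others.

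The 17 changes of sign were in values that were not called, and the cause was not tested. Leaving out 1 library at a time, log2 changes for c-Fos + DMSO over empty vector ran from -0.0487 to 0.0293 for Trp53, -0.00165 to 0.174 for Ccng1, -0.153 to 0.00468 for Zmat3 and -0.0488 to 0.00289 for Ei24. For UO126 over c-Fos + DMSO they ran from -0.0268 to 0.377 for Ccng1 and -0.171 to 0.00241 for Zmat3, and for afatinib over UO126 from -0.212 to 0.208 for Ccng1, -0.0696 to 0.133 for Phlda3 and -0.054 to 0.0737 for Sesn1. The Sesn1 value was also -0.000845 with at least 5 CPM in 2 libraries, -0.000631 with the replicate block and -0.0016 with the 4 compared libraries.

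The labels give replicate numbers only, and whether these pair the samples cannot be told. The correlation of duplicate differences between groups over 10250 genes ran from -0.507 (c-Fos + afatinib and c-Fos + UO126) to 0.265 (c-Fos + DMSO and empty vector). A block by replicate number does not take up differences that run in opposite directions in 2 groups. With the replicate number as a block, 5032 genes were called for c-Fos + DMSO over empty vector and 3232 for UO126 over c-Fos + DMSO, against 5433 and 3681, and the block ended the calls of Trp53inp1 and Perp with UO126 over c-Fos + DMSO (adjusted p = 0.068 and 0.083). With 2 libraries a group and 17901974 to 23126048 counts each, the SE of a member's log2 change ran from 0.062 for Ei24 to 0.3 for Trp53inp1.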
